A study of Mus musculus with 4 samples.

Results

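The response to serum of inner medullary collecting duct (IMCD) cells with an intact TGF-β type II receptor (TβRII) was described from 2 of the 4 libraries of the study. IMCD cells are epithelial cells from the inner medulla, where vasopressin sets how much water the collecting duct takes back. The serum-replete library came from TβRII fl/fl cells kept in medium with serum, and the serum-starved library from TβRII fl/fl cells kept for 4 days without it. Both came from untreated cells of a C57B/l strain in which Tgfbr2, the gene for TβRII, is floxed, and the cells were immortalized with psv40. The other 2 libraries hold TβRII-/- cells, which are cells with the same floxed gene that were treated with adeno-Cre, in the same serum-replete and serum-starved media. Each condition is 1 library of 1 immortalized population, so no test was possible, no spread between cultures is known, and all values below describe these libraries.

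Serum carries growth factors, lysophospholipids, lipoproteins and latent or active TGF-β family ligands. In epithelial cells and fibroblasts its addition is known to drive actin assembly, which frees the coactivator MRTF to act with the transcription factor SRF, and to push resting cells through G1 into S phase. Its removal takes away lipoprotein cholesterol, which the SREBP2 pathway senses, and can activate the stress factor ATF4, which turns on genes of amino acid synthesis and uptake. These are background facts and were not measured here.

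Expression was given as FPKM, fragments per kilobase scaled to the mapped fragments of the library, for 37981 gene loci. Each gene was compared as log2 of the serum-replete FPKM plus 1 over the serum-starved FPKM plus 1, for the 12583 loci with at least 1 FPKM in either library, so that the change of weakly expressed genes is understated. The authors normalized the serum-replete and the serum-starved tables separately, so each ratio was centered on the median of these loci, which moved it by 0.02 only. A gene was counted as higher or lower when the centered log2 ratio was at least 1 in size, a 2-fold difference. The steps between low values put 1 FPKM of a 1 kb transcript at about 32.4 reads in the serum-replete and 31.8 reads in the serum-starved library. This is a rough estimate, since only 66.1% (serum-replete) and 58.9% (serum-starved) of the low values lay near a whole step. The exact sequencing depth was thus not recovered, and counting error is wide at the lowest levels.

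Some markers of the collecting duct and of epithelium were at or near 0. The water channel gene Aqp2 was listed at 0 in the serum-replete and the serum-starved library, and the adhesion genes Epcam (0.126 FPKM with serum and 0.485 FPKM without) and Cdh1 (1.25 FPKM with serum and 1.79 FPKM without) were at or near 0. Other epithelial and renal genes were plain, among them the keratins Krt8 (251 FPKM in serum-replete and 142 FPKM in serum-starved cells) and Krt18 (25.1 FPKM with serum and 22.1 FPKM without), the kidney cadherin Cdh16 (298 FPKM with serum and 352 FPKM without) and the renal transcription factor Pax8 (252 FPKM with serum and 206 FPKM without). Of 33 collecting duct and tubular epithelial genes, 18 were measured and 0 differed 2-fold between the media (median 0.23). Summed over the markers of each other cell type, proximal tubule markers came to 53.7 FPKM in serum-replete and 101 FPKM in serum-starved cells, and leukocyte markers to 12.5 FPKM with serum and 20.4 FPKM without. Markers of the loop of Henle and distal tubule (8.44 FPKM with serum and 14.5 FPKM without), of intercalated cells (6.17 FPKM with serum and 2.43 FPKM without), of fibroblasts (2.81 FPKM with serum and 0.659 FPKM without) and of endothelium (8.23 FPKM with serum and 6.94 FPKM without) were lower still. The proximal tubule sum rests on Aqp1 and Ggt1, while Slc34a1, Slc22a6, Hnf4a and Miox were listed at 0 in both media. Few markers of these types were measured, 3 of 10 for proximal tubule, 2 of 8 for loop and distal tubule, 1 of 7 for intercalated cells, 1 of 8 for fibroblasts, 1 of 7 for endothelium and 3 of 8 for leukocytes. Aqp1 (−1.19), Umod (−1.04) and Csf1r (−2.02) were lower with serum, and Atp6v0d2 (1.08), Col1a1 (1.22) and Cd68 (1.25) were higher. The defining markers Slc12a1, Slc12a3, Foxi1, Slc4a1, Pdgfra, Lum, Pecam1, Cdh5 and Cd3e were at 0 or under 0.2 FPKM in both. In such bulk libraries fewer cells of a type and less RNA per cell cannot be told apart, and the part these cell types play in the results below was not tested. Tgfbr2 itself was 163 FPKM with serum and 143 FPKM without (log2 ratio 0.22).

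With serum, 500 loci were at least 2-fold higher (3.97% of those measured) and 336 were lower (2.67%). Many of these are short RNA genes, for which FPKM is unreliable, or loci listed at 0 in 1 library. Among the 10908 loci that name a single protein-coding gene, 331 were higher (3.03%) and 167 were lower (1.53%), and 95.4% lay within 2-fold. The split between higher and lower depends on the scale. With the protein-coding FPKM sums of the 2 libraries made equal in place of centering, the median of all loci shifted by −0.14 and 402 loci were higher and 421 lower, so that 48.8% of the loci past 2-fold were higher, against 59.8% with centering.

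**Figure D1:**
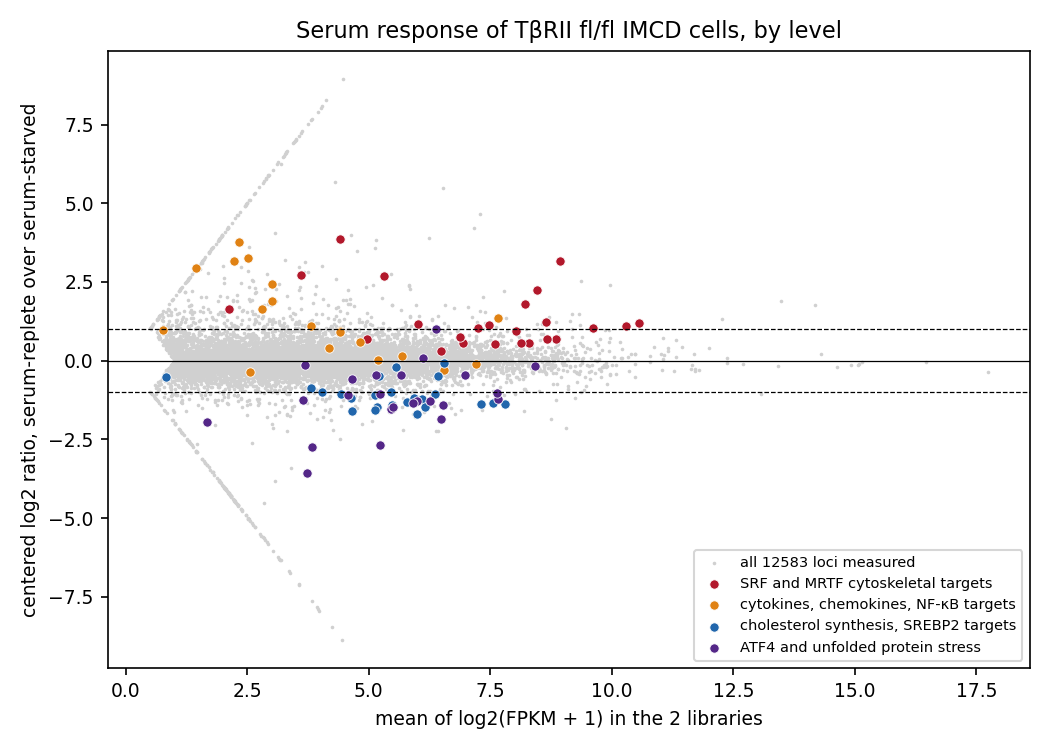
Each point is 1 of the 12583 gene loci measured in TβRII fl/fl cells, with the mean of log2(FPKM + 1) of the serum-replete and the serum-starved library on the x axis and the centered log2 ratio, serum-replete over serum-starved, on the y axis. Dashed lines mark 2-fold, the straight diagonal edges are loci listed at 0 in 1 library, and the cytoskeletal and cytokine lists (red, orange) lie mostly above 0 while the cholesterol and ATF4 lists (blue, purple) lie mostly below it.

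Sprr1a, Lcn2 and C3 were among the genes with the highest ratios of serum-replete over serum-starved FPKM. Sprr1a, a cornified envelope protein of stressed epithelium, was 139 FPKM in serum-replete and 1.78 FPKM in serum-starved cells (log2 ratio 5.68). Lcn2, the iron-carrier-binding lipocalin used as a marker of tubular injury, was 613 FPKM with serum and 12.8 FPKM without (5.50). C3, the central complement component, was 613 FPKM with serum and 32.4 FPKM without (4.22). These genes therefore stood at over 100 FPKM with serum and under 40 FPKM without. They were followed by the protease inhibitor Slpi (33.2 FPKM with serum and 1.07 FPKM without, 4.07), the BMP target Id3 (96.9 FPKM with serum and 5.27 FPKM without, 3.99), the arginine methyltransferase Prmt2 (288 FPKM with serum and 18.5 FPKM without, 3.91), the muscle-type tropomyosin Tpm2 (79.3 FPKM with serum and 4.57 FPKM without, 3.87) and Arrb2, a scaffold that shuts off G protein-coupled receptors (133 FPKM with serum and 8.43 FPKM without, 3.85). Of the 15 highest genes by the ranking rule, Sept7, Syne2, Psd3, Adamts4 and Zfp281 were listed at 0 without serum beside a failed estimate of the authors' software, so no ratio is given for them, and Gm11084 is a predicted gene listed at 0.

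Hist1h2ac, Lipg and Trib3 were among the genes that stood lowest with serum. Hist1h2ac, a replication-type histone H2A gene, was 0.484 FPKM in serum-replete and 33.8 FPKM in serum-starved cells (−4.53), and Lipg, the endothelial lipase gene, was 1.23 FPKM with serum and 30.9 FPKM without (−3.81). Trib3, a pseudokinase induced by ATF4, was 2.79 FPKM with serum and 45.1 FPKM without (−3.58), Chac1, which degrades glutathione, was 4.47 FPKM with serum and 36.4 FPKM without (−2.75), and Ddit3, the stress transcription factor CHOP, was 13.6 FPKM with serum and 94.1 FPKM without (−2.68). Abca1, the cholesterol efflux pump, was 7.82 FPKM with serum and 49.8 FPKM without (−2.50). Fgfbp1, which releases stored FGF from matrix, was 0.0951 FPKM with serum and 6.0 FPKM without (−2.66), Arhgdib, an inhibitor of small GTPases, was 3.51 FPKM with serum and 20.7 FPKM without (−2.25), and Trim12c, a TRIM protein gene whose interval holds other Trim genes, was 2.22 FPKM with serum and 33.5 FPKM without (−3.40). Rif1 was listed at 0 with serum beside a failed estimate, and the others of the 15 lowest are predicted genes listed at 0 with serum.

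**Figure D2:**
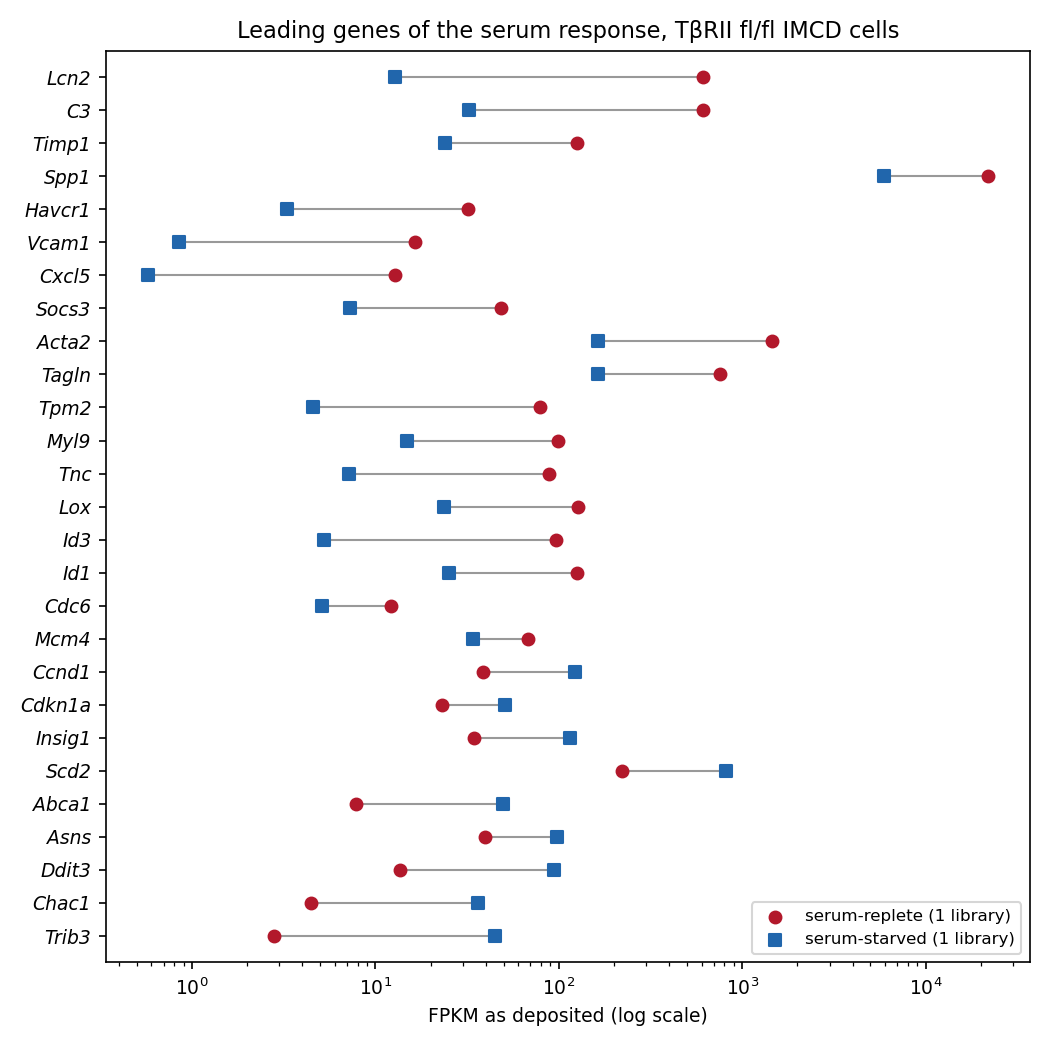
FPKM as deposited, on a log axis, of 27 genes named in the text in TβRII fl/fl cells, with the serum-replete library as red circles and the serum-starved library as blue squares (1 library each, no error bars). From Lcn2 to Mcm4 the red circle lies to the right, as for Lcn2 at 613 FPKM with serum and 12.8 FPKM without, and from Ccnd1 to Trib3 it lies to the left, as for Trib3 at 2.79 FPKM with serum and 45.1 FPKM without.

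Most tubular injury markers were higher with serum. Of 12 tubular injury markers, 7 were higher and 0 lower (median 1.76), beside a median of 0 over all loci. Havcr1, which encodes the injury marker KIM-1, was 32.01 FPKM in serum-replete and 3.29 FPKM in serum-starved cells (2.97). The chaperone clusterin, Clu, was 2282 FPKM with serum and 433 FPKM without (2.41), the hyaluronan receptor gene Cd44 was 86.7 FPKM with serum and 27.9 FPKM without (1.62), and osteopontin, Spp1, one of the most abundant transcripts, was 21791 FPKM with serum and 5947 FPKM without (1.89). Vim (1339.9 FPKM with serum and 1042.6 FPKM without, 0.38) and Sox9 (4.18 FPKM with serum and 3.15 FPKM without, 0.34) were under 2-fold, and Prom1 was 157 FPKM with serum and 196 FPKM without (−0.30).

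The list of the STAT3 axis is named for the transcription factor that IL-6 family cytokines activate. It held 6 higher and 0 lower members of 14 measured (median 0.88). Besides Lcn2 these were Timp1, an inhibitor of matrix metalloproteases (126 FPKM with serum and 24.0 FPKM without, 2.37), Socs3, the feedback inhibitor of the pathway (48.2 FPKM with serum and 7.27 FPKM without, 2.59), Cebpd, an acute phase transcription factor (75.9 FPKM with serum and 13.8 FPKM without, 2.40), Bcl3, an atypical IκB protein (41.5 FPKM with serum and 10.4 FPKM without, 1.92), and Saa3, an acute phase apolipoprotein at 10.7 FPKM with serum and listed at 0 without. The level of Stat3 itself was close in both media (81.2 FPKM with serum and 87.0 FPKM without, −0.08), as was that of the shared receptor chain Il6st (187 FPKM with serum and 187 FPKM without, 0.02). Pdgfb, which encodes a PDGF chain, was 126 FPKM with serum and 86.5 FPKM without (0.56). Of 11 complement genes listed, 6 were measured. Of these 6, 4 were higher and 0 lower (median 1.14), beside 3.97% of all loci higher. Without the expression filter the median over all 11 was 0.37. The higher members were C3, the C1 proteases C1s (20.2 FPKM with serum and 8.07 FPKM without, 1.25) and C1ra (7.36 FPKM with serum and 2.94 FPKM without, 1.11), and Cfb (6.77 FPKM with serum and 2.48 FPKM without, 1.18), whose locus joins it to C2.

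Among 19 cytokine, chemokine and NF-κB target genes measured, 9 were higher and 0 lower (median 0.96). The chemokines Ccl20 (17.4 FPKM in serum-replete and 0.365 FPKM in serum-starved cells, 3.77) and Cxcl5 (12.8 FPKM with serum and 0.575 FPKM without, 3.15) were close to absent without serum, and Ccl5 was 6.50 FPKM with serum and listed at 0 without. The monocyte attractants Ccl2 (320 FPKM with serum and 125 FPKM without, 1.37) and Ccl7 (17.7 FPKM with serum and 2.50 FPKM without, 2.44) and the neutrophil attractant Cxcl1 (14.4 FPKM with serum and 3.22 FPKM without, 1.89) were higher, as were the adhesion molecule Vcam1 (16.4 FPKM with serum and 0.855 FPKM without, 3.25) and the NF-κB feedback gene Tnfaip3 (11.2 FPKM with serum and 2.98 FPKM without, 1.64). Cxcl2 was near the limit of measurement (1.36 FPKM with serum and 0.228 FPKM without, 0.96), and Il1b (0.20 FPKM with serum and 0.0559 FPKM without) and Il6 (listed at 0 in both) were not measured.

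Promoter windows were searched for the κB site, the DNA element that NF-κB dimers bind. The windows are RefSeq's (GRCm38.p6), from 250 bases before to 50 bases after each gene's start, and both strands were read. Of 10 cytokine list members matched in this table, 8 held a κB site, beside 9.55% of all 27025 genes in it. The list was drawn up from known NF-κB targets, so this share describes the list. Only 3 of these 8 were past 2-fold (Ccl20, Cxcl1 and Tnfaip3). Cxcl2, Nfkbia and Nfkb2 were under 2-fold, as were Csf1 (−0.10) and Lif (−0.38), whose ratios were below 0. Of the 9 higher members of the list, only 4 were matched in the table. Over the measured protein-coding genes matched in the table, 45 of 246 that were higher with serum held the element (18.3%), against 1029 of 8437 under 2-fold (12.2%), and 19 of 127 that were lower (14.96%). These counts include members of the list. Stretches are shown for higher genes of the list, each 5′ to 3′ on the gene's strand with the match in capitals, because the match lies upstream of the start of a chemokine or feedback gene that stood over 2-fold higher. They lie at chr1:83116661-83116720 (plus strand) for Ccl20, chr5:90891149-90891208 (plus strand) for Cxcl1 and chr10:19015501-19015560 (minus strand) for Tnfaip3. Matches on the 2 strands overlap in Cxcl1 and Tnfaip3.
Ccl20: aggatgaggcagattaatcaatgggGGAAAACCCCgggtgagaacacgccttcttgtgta
Cxcl1: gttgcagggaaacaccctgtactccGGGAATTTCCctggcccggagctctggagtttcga
Tnfaip3: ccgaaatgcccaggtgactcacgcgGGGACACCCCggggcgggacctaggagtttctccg

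Most genes of the contractile cytoskeleton that SRF and MRTF are known to control were higher with serum. All 24 list members were measured, 14 of them were at least 2-fold higher and 0 lower, and the median was 1.08. Smooth muscle actin, Acta2, was 1459 FPKM in serum-replete and 163 FPKM in serum-starved cells (3.17), and the actin-binding protein Tagln was 759 FPKM with serum and 163 FPKM without (2.24). The myosin light chain Myl9 was 98.6 FPKM with serum and 14.8 FPKM without (2.68), calponin 1, Cnn1, was 30.1 FPKM with serum and 3.78 FPKM without (2.72), and the crosslinker Actn1 was 546 FPKM with serum and 159 FPKM without (1.80). Tropomyosin genes followed Tpm2 at smaller ratios, with Tpm1 at 1.10 and Tpm4 at 1.22, and Actb, the cytoplasmic actin often used as a reference gene, was 2275 FPKM with serum and 998 FPKM without (1.21). The focal adhesion genes Vcl (0.56), Zyx (0.54) and Tln1 (0.31) and the nonmuscle myosin Myh9 (0.57) were under 2-fold. The transcription factor gene Srf was 21.0 FPKM with serum and 14.1 FPKM without (0.56). YAP-TEAD targets, another set of genes tied to cell tension, held 0 of 15 past 2-fold (median 0.18), with Ankrd1 at 280 FPKM with serum and 164 FPKM without (0.79) and Cyr61 at 506 FPKM with serum and 287 FPKM without (0.83).

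SRF binds the CArG box, and 7 of the 22 cytoskeletal genes matched in the promoter table held one (Myl9, Fhl1, Cnn2, Actg1, Fhl2, Filip1l and Vcl), beside 1.81% of all genes in it. The list was drawn up from known SRF and MRTF targets, so this share describes the list. Only 3 of these 7 were past 2-fold, and the others of the 14 higher genes held no match or were not matched in the table. Over all protein-coding genes matched, 8 of 246 higher genes (3.25%), 2 of 127 lower genes (1.57%) and 135 of 8437 genes under 2-fold (1.60%) held the element. Members of the list are included in these counts, so the share of the higher genes describes the list in part. The stretches of the 3 genes that were past 2-fold are shown, with the CArG box in capitals. They lie at chr2:156775278-156775337 for Myl9, at chrX:56779556-56779615 for Fhl1, a LIM domain protein gene, and at chr10:79988519-79988578 for Cnn2, a calponin gene, all on the plus strand.
Myl9: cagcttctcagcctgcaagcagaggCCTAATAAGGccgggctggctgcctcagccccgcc
Fhl1: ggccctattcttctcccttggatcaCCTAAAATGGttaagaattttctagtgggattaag
Cnn2: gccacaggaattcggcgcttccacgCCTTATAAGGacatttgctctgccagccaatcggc

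TGF-β-induced genes held 9 higher and 1 lower member of 22 measured (median 0.74). Besides Acta2 and Tagln the higher members included Lox, which crosslinks collagen (127 FPKM in serum-replete and 23.7 FPKM in serum-starved cells, 2.40), Ltbp2, which binds elastic fibers (34.4 FPKM with serum and 4.15 FPKM without, 2.80), the matrix protein Tgfbi (4.45 FPKM with serum and 0.203 FPKM without, 2.20), the feedback gene Pmepa1 (80.3 FPKM with serum and 34.2 FPKM without, 1.23), Col1a1 (2.12 FPKM with serum and 0.355 FPKM without, 1.22) and Tpm1. The feedback genes Smad7 (24.8 FPKM with serum and 18.4 FPKM without, 0.43) and Skil (24.9 FPKM with serum and 18.2 FPKM without, 0.45), and Ctgf (846 FPKM with serum and 663 FPKM without, 0.37), stood under 2-fold. Timp3 was lower (148 FPKM with serum and 321 FPKM without, −1.09). Acta2, Tagln and Tpm1 are also in the cytoskeletal list.

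The ligands, receptors and SMADs of the TGF-β superfamily differed less, with 4 higher and 0 lower of 29 (median 0.22). Smad3, which carries the TGF-β signal to DNA, was 103 FPKM with serum and 49.5 FPKM without (1.07), the activin subunit Inhba was 3.49 FPKM with serum and 0.553 FPKM without (1.55), and Ltbp1, which tethers latent TGF-β, was 5.16 FPKM with serum and 2.05 FPKM without (1.04). Smad2 was 58.9 FPKM with serum and 86.0 FPKM without (−0.52), Tgfb1 was 24.0 FPKM with serum and 21.4 FPKM without (0.18) and Tgfbr1 was 12.2 FPKM with serum and 10.2 FPKM without (0.26). Targets of BMP, the other branch of the family, held 4 higher and 0 lower of 7 measured (median 1.47). Id3, Id1 (125 FPKM with serum and 25.1 FPKM without, 2.29) and Id4 (9.16 FPKM with serum and 2.72 FPKM without, 1.47) encode inhibitors of basic helix-loop-helix factors, while Id2 was 129 FPKM with serum and 96.3 FPKM without (0.44). The other 7 of the 14 BMP targets listed were under 1 FPKM in both media and were not measured.

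Matrix genes were higher in part. Of 27 collagen and basement membrane genes, 8 were higher and 0 lower (median 0.39). Tenascin C, Tnc, was 88.0 FPKM in serum-replete and 7.15 FPKM in serum-starved cells (3.47), and the collagen VI chains Col6a1 (29.9 FPKM with serum and 6.15 FPKM without, 2.13) and Col6a2 (25.6 FPKM with serum and 4.40 FPKM without, 2.32) stood at similar ratios. The abundant basement membrane chains Col4a1 (249 FPKM with serum and 193 FPKM without, 0.39) and Col4a2 (194 FPKM with serum and 179 FPKM without, 0.14) and fibronectin, Fn1 (1093 FPKM with serum and 888 FPKM without, 0.32), were under 2-fold. Among 11 integrins, 3 were higher and 0 lower (median 0.47), with Itga5, a fibronectin receptor chain, at 46.2 FPKM with serum and 13.4 FPKM without (1.74). Of 12 proteases and inhibitors, 2 were higher, among them Timp1, and 2 were lower (Timp3 and Plau). Plau, which encodes the secreted protease urokinase, was 251 FPKM with serum and 1126 FPKM without (−2.14). Mesenchymal genes held 3 higher and 0 lower of 13 (median 0.38), namely Prrx2, Cd44 and Zeb2.

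**Figure D3:**
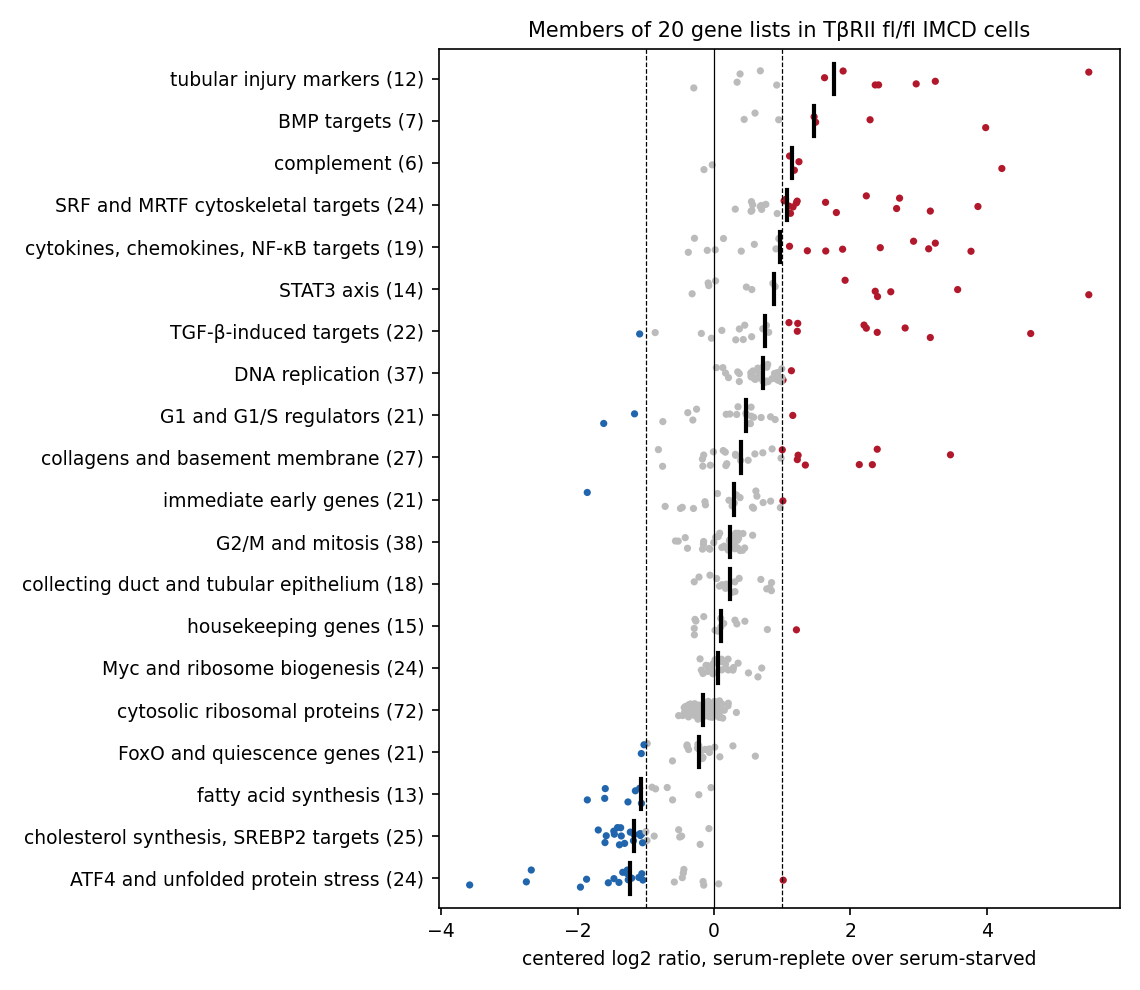
Centered log2 ratio, serum-replete over serum-starved, of every measured member of 20 gene lists in TβRII fl/fl cells, with the number of measured members in parentheses, black bars at the list medians and dashed lines at 2-fold (red higher, blue lower, gray under 2-fold). The injury list has the highest median shown (1.76) and the ATF4 list the lowest (−1.23), while the 38 mitotic genes all lie between −0.56 and 0.57.

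Most sterol and fatty acid synthesis genes were lower with serum. All 25 cholesterol synthesis and SREBP2 target genes were measured, 17 were at least 2-fold lower and 0 higher, and all 25 ratios were below 0 (median −1.17). Along the pathway, Hmgcs1 was 96.8 FPKM in serum-replete and 255 FPKM in serum-starved cells (−1.37), Mvd was 13.3 FPKM with serum and 42.9 FPKM without (−1.60), Fdps was 115 FPKM with serum and 302 FPKM without (−1.36), Sqle was 55.3 FPKM with serum and 118 FPKM without (−1.06), and Nsdhl was 19.2 FPKM with serum and 60.2 FPKM without (−1.58). Insig1, which retains SREBP in the endoplasmic reticulum and is itself an SREBP target, had the largest ratio of the list (34.3 FPKM with serum and 115 FPKM without, −1.70). The smallest ratios were those of Ebp (−0.20) and Tm7sf2 (−0.07), whose locus joins it to Vps51 and Zfpl1.

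Of 13 fatty acid synthesis genes, 7 were lower and 0 higher (median −1.06), led by the desaturases Scd2 (222 FPKM with serum and 819 FPKM without, −1.86) and Scd1 (19.4 FPKM with serum and 61.6 FPKM without, −1.59). Fasn, the fatty acid synthase, was 42.8 FPKM with serum and 97.9 FPKM without (−1.15), and Srebf1, which encodes the SREBP1 factors, was 53.2 FPKM with serum and 116 FPKM without (−1.09). Targets of LXR, the receptor for oxysterols, held 0 higher and 3 lower of 9 (median −0.37). Besides Abca1 the lower ones were Abcg1 (1.69 FPKM with serum and 5.05 FPKM without, −1.15), another cholesterol exporter, and Mylip (13.3 FPKM with serum and 33.2 FPKM without, −1.23), a ubiquitin ligase gene. Both exporter genes, Abca1 and Abcg1, were thus lower with serum. A sterol element spelled TCACNCCAC was in the window of 1 of 17 matched cholesterol genes (Hmgcs1), beside 1.44% of all genes.

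Most ATF4 and unfolded protein stress genes were lower with serum as well. Of 24 members, all measured, 16 were lower and 1 was higher (median −1.23). Atf4 was 130 FPKM in serum-replete and 306 FPKM in serum-starved cells (−1.21). Enzymes of serine, asparagine and cysteine synthesis were among the lower genes, with Phgdh at 136 FPKM with serum and 285 FPKM without (−1.04), Psat1 at 36.7 FPKM with serum and 95.9 FPKM without (−1.34), Asns at 39.4 FPKM with serum and 98.0 FPKM without (−1.27) and Cth at 24.3 FPKM with serum and 74.3 FPKM without (−1.55). The amino acid transporter Slc7a11, which imports cystine, was 0.606 FPKM with serum and 5.33 FPKM without (−1.96), Slc7a5, which imports large neutral amino acids, was 47.7 FPKM with serum and 118 FPKM without (−1.27), and Herpud1, a factor of endoplasmic reticulum protein disposal, was 45.7 FPKM with serum and 172 FPKM without (−1.87). Chaperones of the endoplasmic reticulum did not share this pattern, since Hspa5 was 320 FPKM with serum and 362 FPKM without (−0.16), Hyou1 was 68.9 FPKM with serum and 66.6 FPKM without (0.07) and Pdia4, the 1 higher member, was 117 FPKM with serum and 58.4 FPKM without (1.02). Atf3, a stress factor counted among the immediate early genes, was 6.97 FPKM with serum and 28.3 FPKM without (−1.86), and Sesn2, a brake on mTORC1, was 6.97 FPKM with serum and 18.3 FPKM without (−1.26).

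ATF4 binds the C/EBP-ATF response element (CARE), searched here as TTNCATCA on both strands. It was in the windows of 6 of 21 matched members of the list (Trib3, Chac1, Slc7a11, Herpud1, Vldlr and Asns), beside 4.51% of all genes in the table. The list was drawn up from known ATF4 and unfolded protein stress genes, so this share describes the list. All 6 were at least 2-fold lower with serum, as were 14 of the 21 matched members, with or without the element. Over all protein-coding genes matched, members of the list included, 14 of 127 lower genes held it (11.0%), against 206 of 8437 genes under 2-fold (2.44%) and 11 of 246 higher genes (4.47%). The stretches of 3 of the 6 genes are shown with the match in capitals, those whose match lies upstream of the start and whose ratios were largest. They lie at chr2:119351023-119351082 for Chac1 (plus strand), chr3:50443627-50443686 for Slc7a11 (minus strand) and chr8:94386291-94386350 for Herpud1 (plus strand). In Slc7a11 a further match on the other strand lies just before the capitals.
Chac1: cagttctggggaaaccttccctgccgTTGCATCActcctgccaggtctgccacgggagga
Slc7a11: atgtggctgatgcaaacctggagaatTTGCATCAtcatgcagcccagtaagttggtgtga
Herpud1: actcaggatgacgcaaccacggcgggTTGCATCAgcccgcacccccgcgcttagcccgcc

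Mitotic genes differed little between the media, whereas DNA replication genes had ratios above 0, most of them under 2-fold. Of 38 genes of G2/M and mitosis, all measured, 0 were higher and 0 lower (median 0.23), with Cdk1, the mitotic kinase, at 86.0 FPKM in serum-replete and 73.5 FPKM in serum-starved cells (0.24), Ccnb1 (0.06) and Mki67, which marks cycling cells, at 15.8 FPKM with serum and 10.5 FPKM without (0.57). Of the DNA replication genes, 37 of 37 had ratios above 0 and 2 were past 2-fold, and their median of 0.72 lay near the 95th percentile of the single protein-coding genes (0.79). These were Cdc6, which loads the replicative helicase (12.2 FPKM with serum and 5.10 FPKM without, 1.14), and Mcm4, a helicase subunit (68.3 FPKM with serum and 33.8 FPKM without, 1.01). Pcna, the sliding clamp, was 87.2 FPKM with serum and 53.2 FPKM without (0.72) and Rrm2, a subunit that makes deoxynucleotides, was 129 FPKM with serum and 67.6 FPKM without (0.94).

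Among 21 regulators of G1 and of entry into S phase, 1 was higher and 2 were lower (median 0.47). Of all loci measured, 3.97% were higher and 2.67% were lower. Cyclin D1, Ccnd1, which activates Cdk4 and Cdk6, was lower with serum at 38.6 FPKM, against 122 FPKM without (−1.62), and Mycn was 1.83 FPKM with serum and 5.45 FPKM without (−1.17). Cyclin E1, Ccne1, the partner of Cdk2 at S phase entry, was the higher member (15.5 FPKM with serum and 6.50 FPKM without, 1.16), and Ccnd3 was 107 FPKM with serum and 57.9 FPKM without (0.90). Cdk4 was 671 FPKM with serum and 540 FPKM without (0.33), Cdk6 was 13.1 FPKM with serum and 9.29 FPKM without (0.47) and Myc was 71.8 FPKM with serum and 95.5 FPKM without (−0.38). The table holds 3 loci for Rb1, at 27.5, 7.07 and 1.58 FPKM with serum and 29.7, 6.23 and 2.92 FPKM without. Of 6 CDK inhibitors measured, 0 were higher and 1 was lower (median −0.31). Cdkn1a, which encodes p21, was 23.0 FPKM with serum and 50.9 FPKM without (−1.09), Cdkn2b, which encodes p15, was 0.871 FPKM with serum and 2.45 FPKM without (−0.86), Cdkn2a was 4.52 FPKM with serum and 5.94 FPKM without (−0.31) and Cdkn1b was 25.5 FPKM with serum and 32.5 FPKM without (−0.32). Genes of ribosome biogenesis controlled by Myc (0 of 24 past 2-fold, median 0.06) and cytosolic ribosomal protein genes (0 of 72, median −0.16) stood close to the center of all loci. FoxO and quiescence genes held 0 higher and 2 lower of 21 (median −0.22), Gabarapl1 (−1.07) and Trp53inp1 (−1.03).

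Other signaling lists held few members past 2-fold. Counts this small are not read as a difference of a list. Over all loci, 3.97% were higher with serum and 2.67% were lower. Some shares below were larger, such as 3 of 13 NRF2 targets lower, with 11 of 13 ratios below 0. For p53 targets, 18 of 22 ratios were below 0. Differences of these lists were not tested. Immediate early genes, known to peak within the first hour after serum is added, held 1 higher and 1 lower of 21 (median 0.30), with Fosl2 at 49.9 FPKM in serum-replete and 24.6 FPKM in serum-starved cells (1.01), Fos at 9.31 FPKM with serum and 7.02 FPKM without (0.38) and Egr1 at 45.8 FPKM with serum and 57.5 FPKM without (−0.30). ERK feedback genes held 1 higher, Phlda1 (21.3 FPKM with serum and 8.18 FPKM without, 1.30), and 1 lower, the phosphatase Dusp4 (8.92 FPKM with serum and 28.6 FPKM without, −1.56), of 15 (median −0.33). Growth factors and their receptors held 1 higher of 19 (median −0.01), Kit (7.50 FPKM with serum and 1.14 FPKM without, 2.01), and the 3 IGF-binding proteins measured held 1, Igfbp4 (9.01 FPKM with serum and 0.654 FPKM without, 2.62). Growth arrest-specific genes held 1 higher and 2 lower of 10 (median −0.20), with Gadd45g at 67.4 FPKM with serum and 12.8 FPKM without (2.33) and Gas6, the ligand of Axl, at 10.9 FPKM with serum and 26.3 FPKM without (−1.18). Targets of p53 held 2 higher and 2 lower of 22 (median −0.42), with the death receptor Fas at 19.1 FPKM with serum and 3.93 FPKM without (2.05). NRF2 targets held 0 higher and 3 lower of 13 (median −0.44), Gstm1 (164 FPKM with serum and 511 FPKM without, −1.61), Osgin1 (−1.54) and Nqo1 (−1.40). Glycolysis and HIF targets held 2 higher and 1 lower of 23 (median 0.28), with adrenomedullin, Adm, at 10.2 FPKM with serum and 2.08 FPKM without (1.89) and Ndrg1 at 91.4 FPKM with serum and 275 FPKM without (−1.56). Interferon response genes held 1 higher, Cxcl10 (9.41 FPKM with serum and 2.52 FPKM without, 1.59), and 1 lower, Ifit3 (67.2 FPKM with serum and 206 FPKM without, −1.58), of 20 (median 0.24).

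Lysosome and autophagy genes held 1 higher, Ctsl (810 FPKM with serum and 410 FPKM without, 1.0), and 1 lower, the autophagy receptor Sqstm1 (396 FPKM with serum and 917 FPKM without, −1.19), of 29 (median −0.24). Cell death regulators held 1 higher of 14 (median 0.17), the BH3-only gene Bmf (6.17 FPKM with serum and 0.935 FPKM without, 1.91). The necroptosis kinase gene Ripk3 was 0.453 FPKM with serum and 0.466 FPKM without and not measured, and its substrate Mlkl was 3.85 FPKM with serum and 4.35 FPKM without (−0.12). Circadian clock genes held 1 higher of 14 (median −0.09), the output gene Dbp (16.0 FPKM with serum and 6.56 FPKM without, 1.19). Genes of the primary cilium and Hedgehog pathway (23 measured, median −0.03), Wnt and Notch targets (10 measured, median 0.35) and, but for Actb, 15 housekeeping genes (median 0.10) held 0 members past 2-fold.

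The serum response of the Cre-treated TβRII-/- cells, also 1 library a side, was computed the same way and shares no library with that of TβRII fl/fl cells. The serum-replete libraries of both genotypes were normalized together, as were the serum-starved ones. The 2 responses are therefore not independent of that step. Tgfbr2 was 163 FPKM with serum and 143 FPKM without in TβRII fl/fl cells, and 57.0 FPKM with serum and 73.7 FPKM without in TβRII-/- cells, so reads of the targeted gene remained in the cells labelled TβRII-/-. The value of a whole locus does not show whether the floxed part was read. Deletion of Tgfbr2 and exposure to adeno-Cre cannot be told apart in these cells. More loci differed there, with 887 higher (7.20% of 12327) and 775 lower (6.29%). Of 240 protein-coding genes higher with serum in TβRII fl/fl cells and measured in TβRII-/- cells, 58 were also higher there (24.2%), which is 9.05% of the 641 higher genes of TβRII-/- cells that were measured in both. Of 146 lower genes, 90 were also lower there (61.6%), which is 17.2% of 524. Past 2-fold the other way were 11 of the 240 and 2 of the 146. The difference between the genotypes was not tested.

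The lower lists were lower in both genotypes. The ATF4 list had a median of −1.23 in TβRII fl/fl and −1.28 in TβRII-/- cells, the cholesterol list −1.17 in TβRII fl/fl and −2.34 in TβRII-/- cells, and the fatty acid list −1.06 in TβRII fl/fl and −1.50 in TβRII-/- cells. Trib3, for example, was 2.79 FPKM with serum and 45.1 FPKM without in TβRII fl/fl cells, and 2.11 FPKM with serum and 69.5 FPKM without in TβRII-/- cells. Of the higher lists, injury markers (1.76 in TβRII fl/fl and 1.04 in TβRII-/- cells) and BMP targets (1.47 in TβRII fl/fl and 1.38 in TβRII-/- cells) had medians above 1 in both. In TβRII fl/fl against TβRII-/- cells the median was 1.08 against 0.25 for the cytoskeletal list, 0.74 against −0.18 for the TGF-β-induced list, 0.88 against −0.02 for the STAT3 list and 0.96 against 0.43 for the cytokine list. Each median covers only the members measured in that genotype. These were 22 against 18 for the TGF-β-induced list, 14 against 13 for STAT3 and 19 against 17 for cytokines. Ltbp2 and Cxcl5, for example, were not measured in TβRII-/- cells. Acta2 had a log2 ratio of 3.17 in TβRII fl/fl and 0.52 in TβRII-/- cells, and Lox one of 2.40 in TβRII fl/fl and −0.87 in TβRII-/- cells.

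Lists tied to growth and division stood further from 0 in TβRII-/- cells. The mitotic list had a median of 0.23 with 0 of 38 genes past 2-fold in TβRII fl/fl cells, and of 2.22 with 37 of 38 higher in TβRII-/- cells. The DNA replication list was 0.72 (2 of 37 higher) in TβRII fl/fl and 1.80 (35 of 37 higher) in TβRII-/- cells. In TβRII fl/fl against TβRII-/- cells the median was 0.06 against 1.10 for ribosome biogenesis, −0.16 against 0.63 for ribosomal proteins and −0.22 against −1.07 for FoxO and quiescence genes. Ccnd1 had a log2 ratio of −1.62 in TβRII fl/fl cells and 0.24 in TβRII-/- cells, and Cdkn1a one of −1.09 in TβRII fl/fl and −0.28 in TβRII-/- cells. Krt8, at 251 FPKM with serum in TβRII fl/fl cells, was 0.229 FPKM in TβRII-/- cells, so the 2 populations also differed in genes that serum did not move 2-fold.

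**Figure D4:**
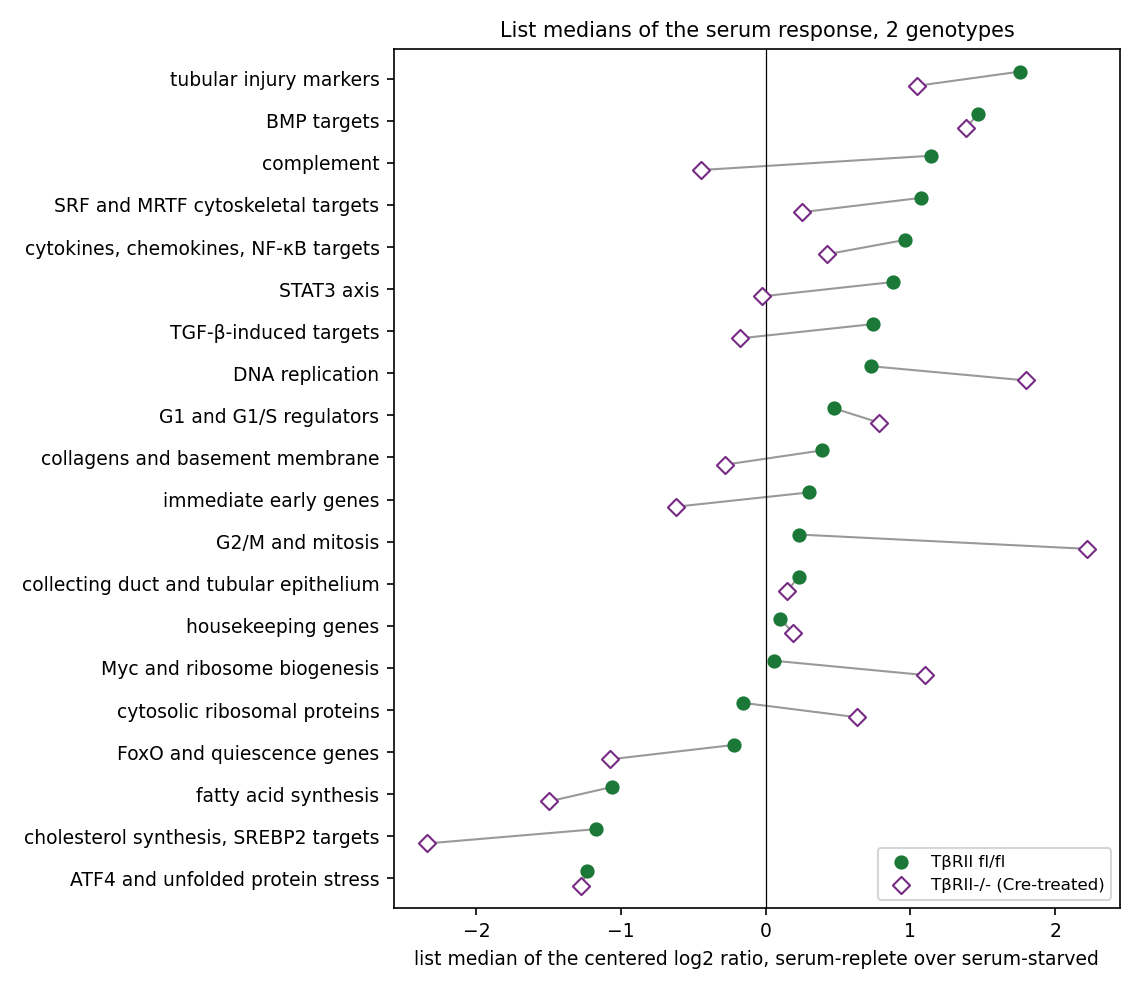
Median over the measured members of 20 gene lists of the centered log2 ratio, serum-replete over serum-starved, in TβRII fl/fl cells (filled green circles) and below it in TβRII-/- cells treated with Cre (open purple diamonds), 1 library a medium and genotype. The ATF4 medians lie close together (−1.23 in TβRII fl/fl and −1.28 in TβRII-/- cells), whereas the mitotic list stands at 0.23 in TβRII fl/fl and 2.22 in TβRII-/- cells.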

How the data were processed

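RNA-Seq of 4 samples was deposited, of which the 2 from TβRII fl/fl cells were compared here. TopHat2, Cufflinks, Cuffdiff and the mm10 build are named in the submitters' processing notes (versions not given in the sources used here). Values were deposited by the authors as FPKM per locus, normalized by Cuffdiff separately for each medium. The tables also hold the authors' fold changes, p-values and q-values between genotypes, which were not used.

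Loci were joined by identifier, and log2((FPKM + 1)/(FPKM + 1)) was centered on the median of loci that reached 1 FPKM in 1 of the libraries, in Python 3.11.15 (pandas 2.3.3, numpy 2.4.6, matplotlib 3.10.9). Biotypes came from GENCODE vM21 and promoter sequences from RefSeq (GRCm38.p6). Depth was read from the steps between low values of single-transcript genes over 1500 bp, of which 66.1% (serum-replete) and 58.9% (serum-starved) lay within 10% of a whole step, so reads were not recovered. The comparison was tested on simulated reads only, with large changes placed in well-expressed loci and no spread between cultures. That simulation does not show how well differences near 2-fold or at low levels are recovered.

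Genes were named by rule: the 15 highest and 15 lowest single protein-coding genes with at least 5 FPKM, the 4 members with the largest ratios in each of 46 lists, the genes the study names, and epithelial markers. Further list members were named for their role after their values were seen. Results of a few genes are left out. The lists and the comparison were chosen with earlier results of these data known. Alternative pseudocounts, filters and scales are given in the closing section.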

Additional observations from a re-analysis of the deposited data

Results flagged for a closer look

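Both results on lists and both on single genes below stand out because the list median or ratio had opposite signs in the 2 genotypes. With 1 library a side the difference was not tested. The complement list had a median log2 ratio (serum-replete over serum-starved) of 1.14 in TβRII fl/fl cells and −0.45 in TβRII-/- cells, although C3 itself was higher with serum in both (4.22 in TβRII fl/fl and 3.30 in TβRII-/- cells). In TβRII-/- cells 1 of the 6 complement genes measured was higher and 1 was lower. The integrin list had a median of 0.47 in TβRII fl/fl cells (11 measured) and −0.53 in TβRII-/- cells (9 measured). In TβRII-/- cells 0 of these 9 integrins were past 2-fold in either direction. Prmt2, an arginine methyltransferase gene, had a log2 ratio of 3.91 in TβRII fl/fl cells (288 FPKM with serum and 18.5 FPKM without) and of −1.68 in TβRII-/- cells (122 FPKM with serum and 432 FPKM without). Dbp, a clock output gene, had a ratio of 1.19 in TβRII fl/fl and −1.02 in TβRII-/- cells. Prmt2 and Dbp are not the only such genes. Of 240 protein-coding genes higher in TβRII fl/fl cells, 11 were 2-fold lower in TβRII-/- cells. Of 146 lower genes, 2 were 2-fold higher there.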

How the results depend on the processing

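The results were recomputed under 10 alternatives, of which 2 were chosen after the data were seen (without failed estimates, and without loci listed at 0). No list median past 2-fold and no named gene past 2-fold changed direction under any of the 10. Medians near 0 did change sign, to just above 0 for loop of Henle markers with a pseudocount of 0.1, to just above 0 without an expression filter and to 0.08 with a filter of 5 FPKM for growth factors, to 0.13 for growth arrest-specific genes with single protein-coding genes alone, to −0.04 centered on housekeeping genes and −0.08 with equal protein-coding sums for ribosome biogenesis, and to −0.05 for housekeeping genes with equal protein-coding sums. Of 191 named genes, values crossed the 2-fold line 55 times in all. With single protein-coding genes alone, 327 were higher and 169 lower and the fatty acid median was −0.99, and without loci listed at 0, 202 were lower. Medians of the cytokine and STAT3 lists were 1.19 and 1.33 with a pseudocount of 0.1, 1.15 and 1.05 with 0.5, and 1.03 and 1.39 with a filter of 5 FPKM. Without an expression filter the cytokine median was 0.57 over 25 members, the STAT3 median 0.84, the complement median 0.37 and the BMP median 0.50, since members near 0 FPKM entered. The cytoskeletal median was 0.98 centered on housekeeping genes, which include Actb, and 0.93 with equal protein-coding sums. The ratios of Fosl2, Mcm4 and Ctsl, just past 2-fold, fell under it without centering (0.99, 0.99 and 0.98). No paired analysis was possible because each condition is 1 library, and none could be left out.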
